A study of Mus musculus with 11 samples.

Results

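Semaphorins, plexins, Slits, Robos, netrins and Unc5 receptors are the main families of guidance ligands and receptors, and their transcripts were followed here in endothelial cells of the mouse retina. The members were all protein-coding genes whose symbols place them in these families: 20 semaphorins, 9 plexins, 3 Slits, 4 Robos, 4 netrins and 4 Unc5 receptors. This gave 44 of the 55359 genes counted, of which 21627 were protein-coding. The rule used symbols and gene type and no measured value, though it was set with earlier results of these data known.

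The cells came from mice, C57BL/6 in the labels and C57BL/6J in the study's methods, in the oxygen-induced retinopathy (OIR) model, in which young mice breathe high oxygen, lose retinal capillaries and then grow disordered vessels after return to room air. At postnatal day (P) 12 the vitreous was injected with 0.5 µL of oncostatin M (OSM, a cytokine of the interleukin-6 family) at 100 ng/µL in 5 mice, or with 0.5 µL of PBS in 6 mice. At P17, CD31+/CD45- cells were sorted from both retinas of each mouse, pooled per mouse, and sequenced as 1 library. The labels name no transgene or deletion, all mice were in the OIR model, and no mouse kept in room air was part of the comparison. Mice 1 to 4, 5 to 8 and 9 to 11 were each 1 litter and 1 OIR run, so litter and run cannot be told apart. The OSM mice were 1 and 2 in litter 1, 5 and 6 in litter 2, and 9 in litter 3. The labels give each mouse 1 treatment, whereas the methods describe PBS injection of contralateral eyes; how this relates to the pooling of both retinas was not settled here.

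Guidance proteins steer growing axons and, in the same way, the tip cells of sprouting vessels. Semaphorins bind plexins, directly or, for most class 3 semaphorins, together with neuropilins; plexins then act on small GTPases and the cytoskeleton, usually to repel the cell or weaken its adhesion. Slits bind Robo1 and Robo2, while Robo4 is the endothelial family member and has been described as a partner of Unc5b, a receptor that also binds netrins. In the retina, neurons are a source of semaphorins and Slits that reach endothelial plexins, neuropilins and Robos.

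Libraries held 26697990 to 56033479 counted reads (median 32500202), and 16635 to 20898 genes had a read. Summed endothelial markers (Pecam1, Cdh5, Cldn5 and 7 others) lay between 12300 and 17920 CPM (reads scaled to library size, here by the TMM method) in the 11 mice, against 49.9 to 200.4 CPM for retinal neuron markers, 34.5 to 87.8 CPM for leukocyte markers and 191.8 to 5131 CPM for rod markers, the last highest in mouse 5. Most of the leukocyte sum was Laptm5 (mean 46.5 CPM). The next leukocyte marker, Csf1r, averaged 1.17 CPM, and Ptprc averaged 0.101 CPM. Mural markers summed to 310 to 1737 CPM. Glial markers summed to 1738 to 2217 CPM, and most of this was Vim, which endothelial cells also express (mean 1384 CPM). Apoe averaged 289.9, Glul 237.5, Sox9 19.2 and Clu 19.1 CPM, each with reads in every mouse. Rlbp1, Slc1a3, Gfap, Aqp4 and Pax2 averaged 13.1, 5.45, 1.03, 0.457 and 0.0227 CPM. By these markers the sorted cells were endothelial, with transcripts of other cells present. In bulk samples of this kind, fewer cells of a type and less RNA per cell cannot be told apart. Guidance genes took 0.168 to 0.261% of the counted reads. Of the set, 19 genes had at least 10 reads in every mouse, and the other 25 had 0 reads in at least 1 mouse.

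Receptors led the set. Levels are compared between genes as RPKM (counted reads scaled by exon length and library size), as means with the SD over the 11 mice. Robo4, the endothelial Robo, stood at 131.8 ± 25.7 RPKM, between 94.5 and 179.1 RPKM in single mice, and ranked 205 among protein-coding genes. Plxnd1, the plexin of endothelial cells and the receptor of Sema3e, followed at 60.7 ± 11.9 RPKM and rank 567. Unc5b, which marks tip cells and arteries, stood at 14.8 ± 2.40 RPKM. Robo4 accounted for 99.5% of the summed RPKM of the Robos, Plxnd1 for 73.1% of the plexins and Unc5b for 82.9% of the Unc5 receptors.

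The promoters of Robo4 and Plxnd1, the highest receptors, and of Plxnb2, the receptor whose treatment groups did not overlap, are shown because the results below turn on these transcripts. Each run is 300 bases, from 250 before to 50 after a RefSeq start (table on GRCm38.p6), and each was found once, without mismatch, in GRCm39, whose coordinates are given. Robo4 starts on the plus strand (chr9:37313018-37313317), and Plxnd1 (chr6:115971917-115972216) and Plxnb2 (chr15:89064942-89065241) start on the minus strand. The RefSeq starts lie 75, 320 and 188 bases from the start of the gene's canonical transcript in the annotation used here. Capitals mark GGAA on either strand, the core letters read by ETS factors, a family that many endothelial genes depend on.
Robo4: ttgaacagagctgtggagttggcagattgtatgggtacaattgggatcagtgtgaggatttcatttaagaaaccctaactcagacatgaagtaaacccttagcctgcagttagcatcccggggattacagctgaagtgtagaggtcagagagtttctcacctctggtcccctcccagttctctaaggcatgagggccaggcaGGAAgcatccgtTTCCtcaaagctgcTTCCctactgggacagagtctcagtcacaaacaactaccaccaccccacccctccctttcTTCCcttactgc
Plxnd1: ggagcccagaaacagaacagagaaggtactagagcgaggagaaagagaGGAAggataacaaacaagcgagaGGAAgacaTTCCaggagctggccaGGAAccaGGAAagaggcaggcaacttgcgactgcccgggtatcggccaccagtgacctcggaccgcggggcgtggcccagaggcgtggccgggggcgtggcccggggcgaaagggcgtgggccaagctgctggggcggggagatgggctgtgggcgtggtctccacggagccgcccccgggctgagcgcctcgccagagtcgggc
Plxnb2: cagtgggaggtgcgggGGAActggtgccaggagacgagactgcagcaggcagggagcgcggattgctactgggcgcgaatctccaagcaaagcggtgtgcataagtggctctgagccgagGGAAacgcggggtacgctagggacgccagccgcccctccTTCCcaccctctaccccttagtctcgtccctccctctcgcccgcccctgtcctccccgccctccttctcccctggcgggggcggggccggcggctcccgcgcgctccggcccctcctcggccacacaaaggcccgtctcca

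The Robo4 run held 4 GGAA, the Plxnd1 run 5 and the Plxnb2 run 3. These letters are common: 96% of 32851 promoters of the same length held at least 1, with a median of 3, and 46.3%, 28.6% and 66.3% held as many as Robo4, Plxnd1 and Plxnb2, or more. In Plxnd1 all 5 lay between 202 and 148 bases before the start, whereas in Robo4 3 of the 4 lay within the last 48 bases before it. The longer CCGGAA (which contains GGAA), the hypoxia response core ACGTG and the STAT letters TTCNNNGAA (which can overlap GGAA) were in none of the 3 runs. Plxnb2 has a second RefSeq start (chr15:89058105-89058404, not printed), 7025 bases from the start of its canonical transcript, whose run held 5 GGAA, and 28.6% of promoters held as many or more. Searched on both strands, they were in 14.9%, 19.6% and 8.3% of all promoters, and in the promoters of 5, 8 and 1 of the 36 guidance genes with an entry. A match is a description of letters, not a bound site.

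**Figure D1:**
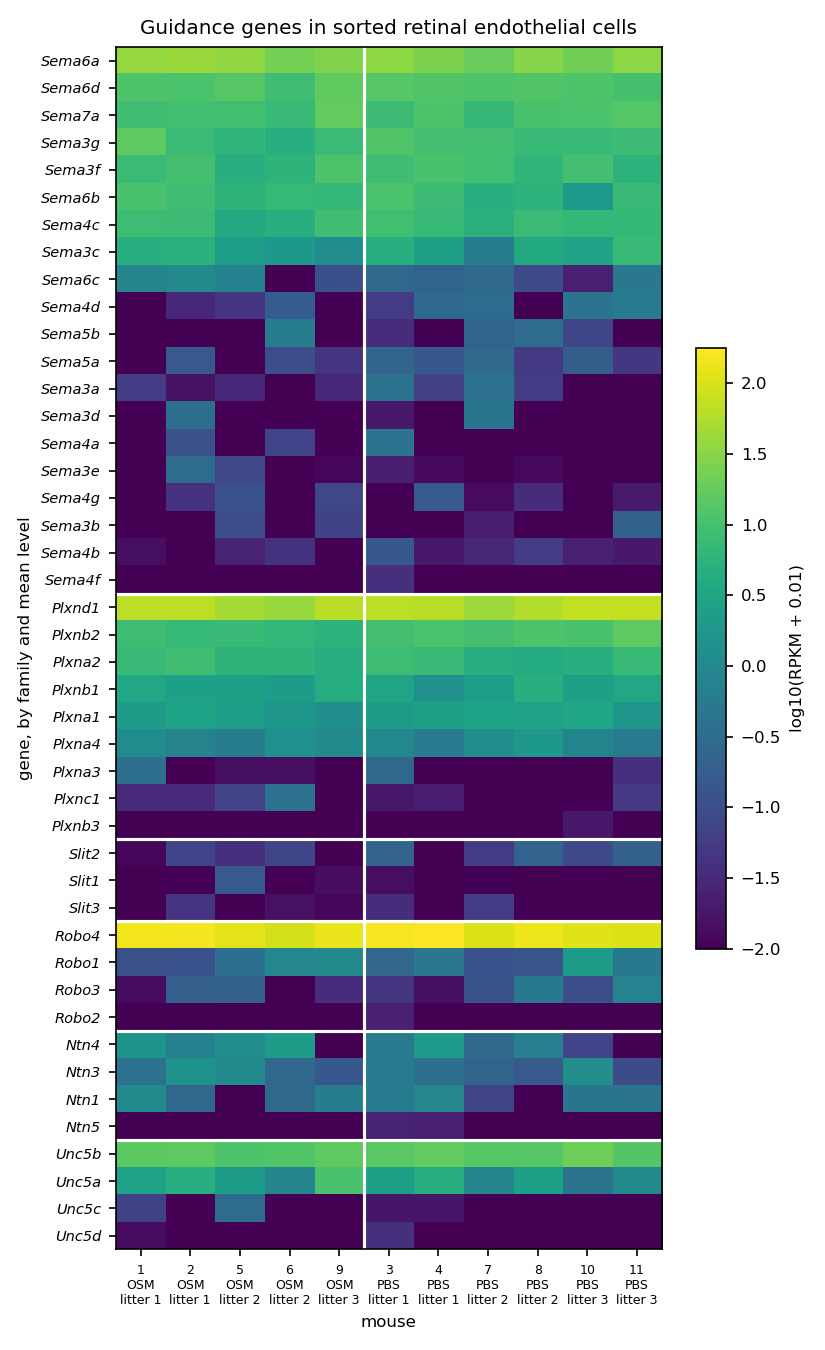
Level of each of the 44 guidance genes (rows, by family and mean level) in each of the 11 mice (columns, with treatment and litter), as log10(RPKM + 0.01) on a colour scale. Robo4 and Plxnd1 are bright in every mouse, while 25 genes reach 0 reads in at least 1 mouse.

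Below Plxnd1, the plexins formed a middle and a low tier. Plxnb2, a receptor of class 4 semaphorins, stood at 9.52 ± 2.86 RPKM, Plxna2 at 6.31 ± 1.74, Plxnb1 at 2.99 ± 1.00, Plxna1 at 2.37 ± 0.63 and Plxna4 at 0.99 ± 0.40 RPKM. Neighbours in this order overlapped in their ranges over mice. Plxna3 and Plxnc1 were near background at 0.0596 and 0.0497 RPKM, and Plxnb3 had reads in 1 mouse only, 2 in all.

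The other Robos and Unc5 receptors were low. Robo1, a Slit receptor, had 63 to 1269 reads per mouse and a mean of 0.546 ± 0.596 RPKM, with 37.6 CPM in mouse 10 and 1.87 CPM in mouse 1. Unc5a averaged 3.03 ± 2.95 RPKM, an SD close to the mean because mouse 9 stood at 58.1 CPM and the next mouse, mouse 2, at 25.7 CPM. Robo3 averaged 0.176 RPKM, Robo2 had 0 to 9 reads, and Unc5c and Unc5d had reads in 4 and 2 mice.

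Semaphorins were spread over more genes than the receptors were. Sema6a, a transmembrane semaphorin, led at 29.9 ± 7.05 RPKM and held 33.8% of the family's summed RPKM. After it came Sema6d (12.4 ± 1.96), the GPI-anchored Sema7a (10.5 ± 2.91), the secreted arterial Sema3g (8.86 ± 3.15) and Sema3f (8.26 ± 2.35), then Sema6b (7.11 ± 2.66), Sema4c (7.03 ± 1.81) and Sema3c (3.38 ± 2.01 RPKM). From Sema7a to Sema4c the steps between neighbours were smaller than the SD over mice. The 12 other semaphorins averaged under 0.4 RPKM each, among them Sema3a at 0.0909 and Sema3e at 0.0363 RPKM, both known as products of retinal neurons. For Sema4c, 16.8% of exon bases are shared with an antisense gene; reads there cannot be assigned without strand, so its level is uncertain, as are those of Sema4d (13.7%) and Sema4g (12.7%).

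Slits and netrins, the secreted ligands of the Robo and Unc5 receptors, were low, the Slits most of all. Slit2, the highest Slit, averaged 0.0812 ± 0.0839 RPKM, or 0.261 RPKM when the length was taken from the longest transcript. In the OSM mice it stood at 0.0574, 1.97, 0.884, 2.17 and 0 CPM (mice 1, 2, 5, 6 and 9), and in the PBS mice at 0 to 6.95 CPM with a median of 4.30 CPM. The groups overlapped, and mice of both groups had no read of it. Slit1 had reads in 3 mice, 38 of its reads in mouse 5, and Slit3 in 5 mice.

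Ntn4, a netrin of basement membranes, was the highest netrin at 0.836 ± 0.781 RPKM. It stood at 6.20, 2.81, 4.59, 8.21 and 0 CPM in OSM mice 1, 2, 5, 6 and 9, and at 0 to 7.67 CPM (median 1.69) in PBS mice. Ntn4 was thus present in litters 1 and 2 and almost absent from litter 3 under both treatments. Ntn3 (0.535 RPKM) had reads in every mouse and Ntn1 (0.415 RPKM), the classical Unc5b ligand, in 9 of 11. Ntn5 had 1 read in each of 2 mice.

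The question of which side of each guidance system these cells transcribe was put to 25 pairs, gene against gene in the same mouse. All were of a ligand and a receptor except Unc5b with Robo4, a pair of receptors. Unc5b was placed on the ligand side there for counting only. With the sides exchanged, this pair would count as ligand higher in the tallies below. The receptor was higher in all 11 mice in 14 pairs and the ligand in all 11 mice in 5 pairs. In the 8 pairs with at least 10 reads of both genes in every mouse, the balance was the other way: the receptor was higher in all mice in 2 (Sema3c with Plxnd1, Unc5b with Robo4) and the ligand in 4. In the other 12 of the 14, the ligand had 0 reads in at least 1 mouse. Slit2 at 0.0812 RPKM was below Robo1 (0.546 RPKM) in 10 of 11 mice and above Robo2 in 9 of 11. It was far below Robo4 at 131.8 RPKM, a pair whose direct binding is disputed. Ntn1 at 0.415 and Ntn4 at 0.836 RPKM faced Unc5b at 14.8 RPKM. Sema3e at 0.0363 RPKM faced its receptor Plxnd1 at 60.7 RPKM, and so did Sema3c at 3.38 RPKM, a pair in which both genes were well counted and the ratio of means was 18.0. In these pairs with Plxnd1 and Unc5b the receptor transcript was the higher one in every mouse.

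The 5 opposite pairs were of class 3, 6 and 7 semaphorins. Sema6a exceeded Plxna2 (ratio of receptor to ligand 0.211) and Plxna4 (0.0331) in every mouse, Sema6d exceeded Plxna1 (0.191) and Sema3f exceeded Plxna1 (0.286). Sema7a exceeded Plxnc1, its plexin, with a ratio of 0.00476. For Sema4c and Plxnb2 the levels were close, at 7.03 ± 1.81 and 9.52 ± 2.86 RPKM, with the receptor higher in 9 of 11 mice. Sema3g exceeded Plxna2 in 9 of 11 mice (ratio 0.712), but when lengths were taken from the longest transcript the ratio was 1.11 and Plxna2 was higher in 7 of 11.

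**Figure D2:**
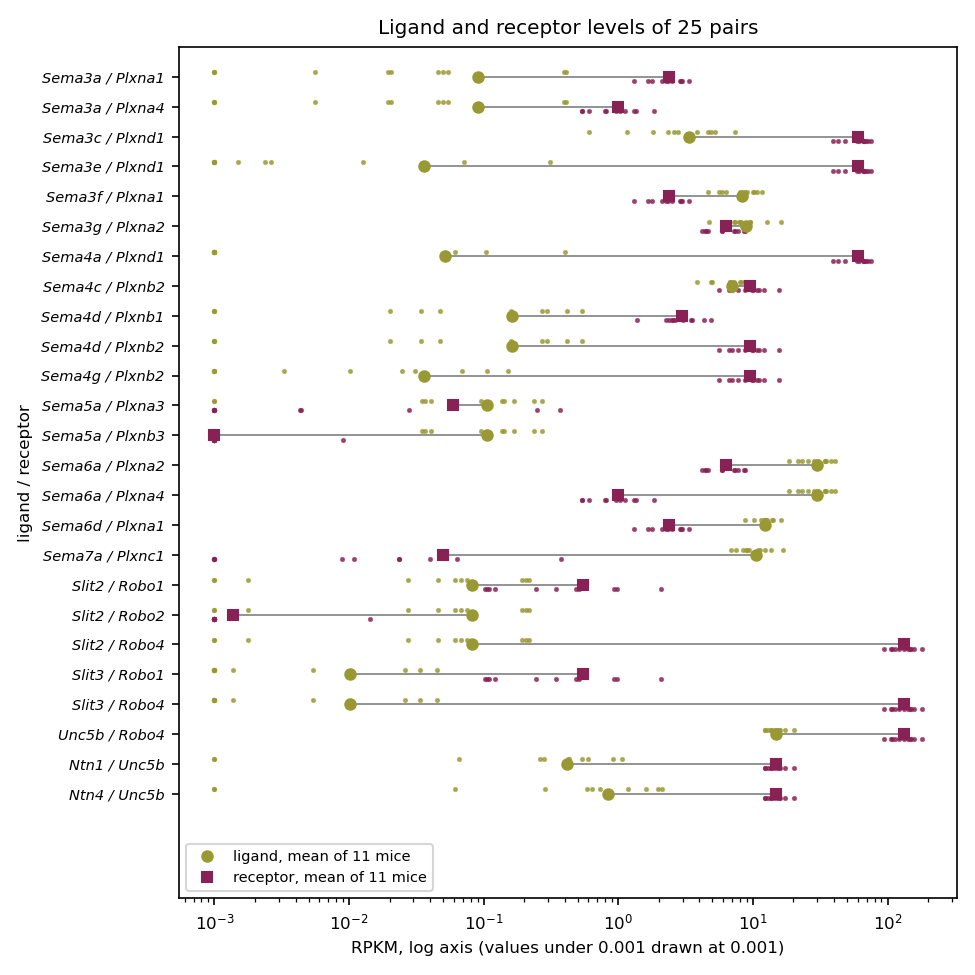
RPKM (log axis) of the ligand and the receptor of 25 pairs, with large symbols for the mean of 11 mice, small points for single mice and a line joining the means. Unc5b and Robo4 are both receptors, and Unc5b takes the ligand symbol in that pair. Robo4 and Plxnd1 lie far to the right of the genes paired with them, while Sema6a, Sema6d and Sema7a lie to the right of their plexins.

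Among the partners of these families outside the set, the neuropilins, co-receptors of class 3 semaphorins, were well counted. Nrp1 stood at 32.8 ± 4.90 RPKM and Nrp2 at 8.14 ± 1.26 RPKM. The integrin subunits Itga1 and Itgb1, listed with the other semaphorin receptors, stood at 15.65 ± 3.03 and 315.7 ± 52.8 RPKM. These genes were outside the 25 pairs, whose receptors were plexins, Robos and Unc5b only. Among the other netrin receptors, Neo1 stood at 0.973 ± 0.671 RPKM, and Dcc, the neuronal receptor, had 0 to 4 reads per mouse. Mcam and Flrt2, in the same list of other netrin and Unc5 receptors, ligands and effectors, were higher. Mcam stood at 181.8 ± 28.3 RPKM and Flrt2 at 9.29 ± 1.88 RPKM, both also outside the 25 pairs.

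To ask whether intravitreal OSM changed these genes, OSM was compared with PBS by edgeR's quasi-likelihood test with litter as a term and Benjamini-Hochberg adjustment over 17050 genes. Of the 44 genes, 38 passed the count filter and were tested; Robo2, Slit1, Unc5d, Ntn5, Plxnb3 and Sema4f were not. None of the 38 passed an adjusted p of 0.05, and 0% of all genes did. At an unadjusted p under 0.05 stood 2 of the 38, Plxnb2 and Sema3e, against 4.96% of all genes. Values were higher with OSM for 20 and lower for 18 genes, with a median log2 fold change of 0.02 beside -0.01 over all genes tested. DESeq2 without a filter called 1 guidance gene, Plxnb2, and 0.581% of all genes.

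Over all 17050 genes tested, OSM lay below PBS without overlap of the groups in 0.223%, and above PBS without overlap in 31 genes. Plxnb2 was the only one of the 38 tested guidance genes whose treatment groups did not overlap, with OSM below PBS. Its level was 71.2, 56.8, 63.2, 54.0 and 45.4 CPM in OSM mice 1, 2, 5, 6 and 9, and 81.2, 90.7, 80.9, 99.6, 86.9 and 126.8 CPM in PBS mice 3, 4, 7, 8, 10 and 11. The highest OSM mouse thus lay below the lowest PBS mouse. The means were 58.1 ± 9.70 CPM (SD, n = 5) and 94.4 ± 17.3 CPM (n = 6), and the log2 fold change was -0.69 (SE 0.17, 95% interval -1.07 to -0.32), or 0.619-fold. Within litters 1, 2 and 3 the difference was -0.43, -0.62 and -1.20 on the log2 scale. The call depended on the tool, and the adjusted p also on the count filter. In the main fit edgeR's quasi-likelihood test gave an unadjusted p of 0.00186 and an adjusted p of 0.955. With every gene with a read kept, edgeR gave an adjusted p of 0.0567. DESeq2 gave adjusted p of 0.0122 without a filter, 0.0385 on the genes edgeR tested and 0.00356 without the litter term. Over 24 alternatives the log2 fold change ran from -0.86 to -0.53, with adjusted p from 0.00356 to 1.

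Some marker lists also differed in level between the treatments, though edgeR called no marker at an adjusted p of 0.05. All 10 mural markers had a lower fitted value with OSM, 1 of them at an unadjusted p under 0.05 (median log2 fold change -0.74). Their sum was 410.2 to 831.4 CPM (median 490.7) in OSM mice and 310 to 1737 CPM (median 929.7) in PBS mice, with overlap of the groups. Mouse 11 was highest for both mural markers and Plxnb2, whereas mouse 8 had the lowest mural sum and 99.6 CPM of Plxnb2, and OSM mouse 6 had a mural sum of 831.4 CPM and 54.0 CPM of Plxnb2. None of the 10 was at 0 in every mouse. Of 10 proliferation markers 8 were lower with OSM, 1 of them (Mki67) at an unadjusted p under 0.05 (median log2 fold change -0.31). The proliferation sum was 235 to 422.6 CPM with OSM and 348 to 651.2 CPM with PBS, but the medians were 360.6 and 360.9 CPM. Of 8 erythroid and platelet markers tested 7 were higher, 5 at an unadjusted p under 0.05. The erythroid and platelet sum was 369.2 to 1142 CPM (median 632.7) with OSM and 127 to 614.3 CPM (median 277.8) with PBS. The part of these lists in the Plxnb2 difference was not tested. Without mouse 11 the log2 fold change of Plxnb2 was -0.61.

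**Figure D3:**
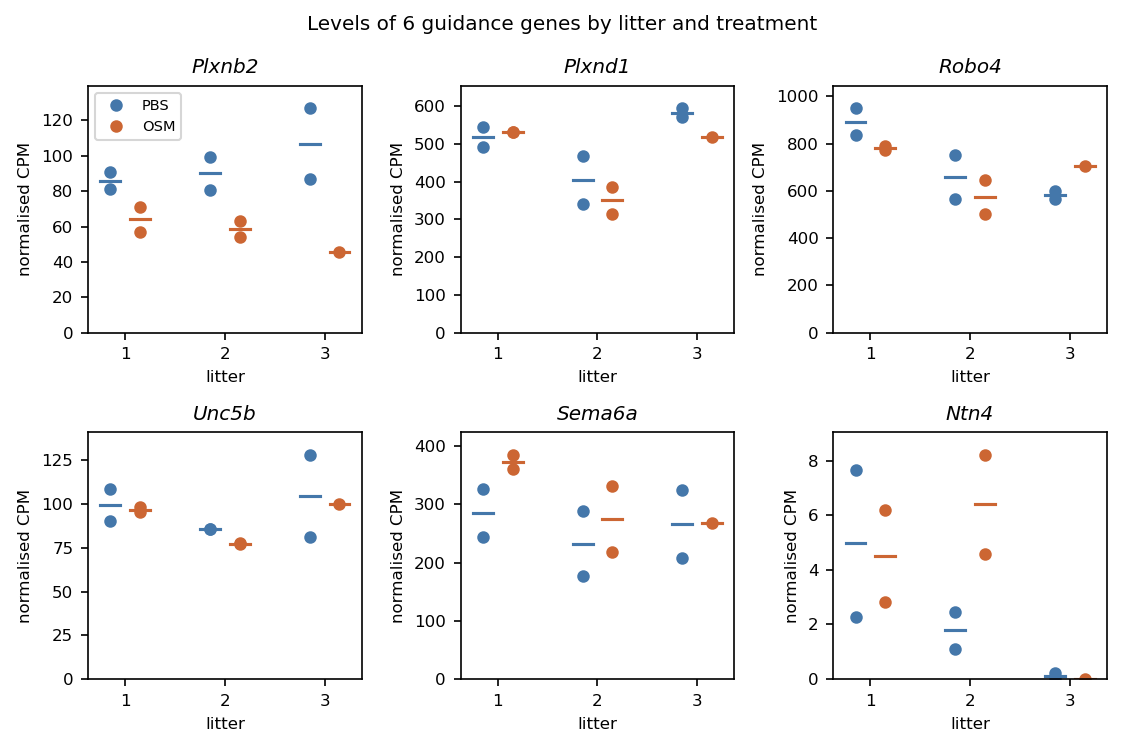
CPM (from 0) of 6 guidance genes in each mouse, by litter on the x axis, with PBS in blue and OSM in orange and bars for the mean of the mice of a litter and treatment. Plxnb2 is lower with OSM in all 3 litters, Plxnd1 is lowest in litter 2, and Ntn4 is near 0 in litter 3.

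Sema3e, the secreted ligand of Plxnd1, had a log2 fold change of 4.15 (SE 1.87, unadjusted p = 0.0487 and adjusted p = 0.955 by edgeR's quasi-likelihood test). Its level in OSM mice 1, 2, 5, 6 and 9 was 0, 3.71, 0.850, 0 and 0.0179 CPM, and in PBS mice 0 to 0.152 CPM with a median of 0.0143 CPM. The difference rested on 128 reads in mouse 2 and 25 in mouse 5, where no other mouse had more than 4, and the other OSM mice overlapped the PBS mice. Without mouse 2 or without mouse 5 the gene did not pass the count filter.

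The highest receptors were close between treatments. Robo4 stood at 772.8, 790.2, 646, 501 and 704 CPM in the OSM mice and at 566.3 to 949.3 CPM (median 675.6) in the PBS mice, with a log2 fold change of -0.08 (95% interval -0.32 to 0.17). Plxnd1 stood at 532.7, 532.8, 385.9, 314.6 and 519.5 CPM with OSM and 340.5 to 594 CPM (median 517.5) with PBS, a difference of -0.10 (-0.32 to 0.11). For both genes the groups overlapped over most of their range. Unc5b stood at 95.2, 98.1, 77.1, 77.6 and 99.9 CPM with OSM and 81.2 to 128 CPM (median 88.2) with PBS, a difference of -0.09 (-0.37 to 0.19). Sema6a stood at 360.4, 384.9, 332.2, 219 and 268.8 CPM with OSM and 177.1 to 325.8 CPM (median 266.2) with PBS, a difference of 0.24 (-0.14 to 0.63) that was above 0 in each litter. It did not pass the test.

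The intervals show what these data could resolve. For 7 of the 19 genes with 10 reads in every mouse (Robo4, Plxnd1, Unc5b, Plxna2, Sema4c, Sema6d and Sema7a) the 95% interval lay within a 1.5-fold change either way. For the 19 tested genes with fewer reads no such limit could be set: the SE reached 3.64 on the log2 scale, and Slit2, at -2.32 with an interval of -6.27 to 1.63, and Ntn4, at 0.15 with an interval of -3.36 to 3.66, were among them. Over the 19 well-counted genes the fold changes ran from -0.69 (Plxnb2) to 1.00 (Unc5a), with 10 higher and 9 lower.

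**Figure D4:**
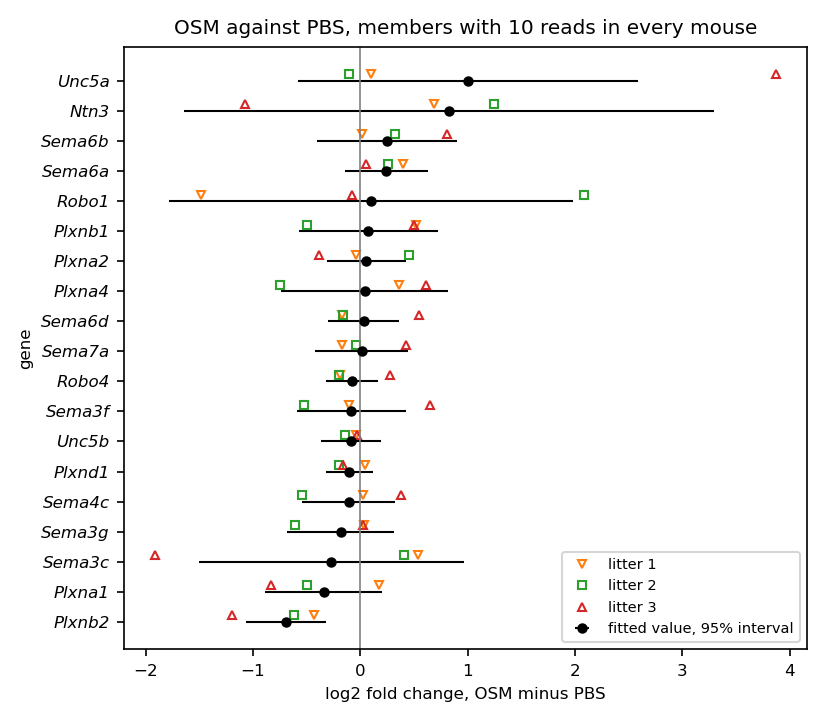
Log2 fold change, OSM minus PBS, of the 19 guidance genes with 10 reads in every mouse, with black points for the fitted value, bars for its 95% interval and open symbols for the difference of means within each litter (log2 of CPM plus 0.5). The interval of Plxnb2 lies below 0, and the other 18 intervals include 0.

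The wider pathway lists gave no called gene either. Of 12 semaphorin co-receptors tested, 3 were higher and 9 lower with OSM (median -0.30), with Ptk7 and Cd72 lower at unadjusted p of 0.0189 and 0.021; Cd72, a B cell receptor of Sema4d, had reads in 4 mice. Nrp1 differed by 0.07 (-0.15 to 0.29) and Nrp2 by -0.08 (-0.40 to 0.24). Of 30 plexin effectors 15 were higher and 15 lower (median 0.01), with Mical3, a flavoprotein of the Mical family, at 1.13 (unadjusted p = 0.0435) and Dpysl2, a collapsin response mediator, at -0.36 (unadjusted p = 0.041). Of 21 Slit-Robo effectors 7 were higher and 14 lower, and of 17 other netrin and Unc5 genes 7 and 10, none at an unadjusted p under 0.05.

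Litter means of Plxnd1 and Robo4 lay further apart than their treatment means. In the joint test of the litter terms, edgeR called none of the 38 genes and 0.0176% of all genes, and 6 of the 38 had an unadjusted p under 0.05, against 10.3% of all genes. Plxnd1 averaged 525.1, 377.3 and 561.6 CPM in litters 1, 2 and 3 (unadjusted p = 0.00144, adjusted p = 0.149 by edgeR's quasi-likelihood test), and Robo4 averaged 837.4, 616.7 and 622.9 CPM (unadjusted p = 0.00894, adjusted p = 0.264 by the same edgeR test). Litter 2 was thus lowest for Plxnd1 and litter 1 highest for Robo4. Plxna2 averaged 139.4, 87.9 and 95.2 CPM, Ntn4 4.74, 4.09 and 0.0789 CPM, Sema3g 52.7, 31.6 and 35.3 CPM and Sema7a 32.1, 28.8 and 46.1 CPM. Their unadjusted p-values in edgeR's quasi-likelihood test were 0.0109, 0.0265, 0.0339 and 0.0458, and the adjusted p-values were 0.291, 0.41, 0.443 and 0.477. Plxna2 and Sema3g were highest in litter 1 and Sema7a in litter 3. DESeq2 without a filter called 4 of them, with 3.44% of all genes: Plxnd1 (adjusted p = 0.00104), Ntn4 (0.0104), Robo4 (0.04) and Plxna2 (0.0414).

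Whether the OSM difference itself differed between litters was tested by interaction terms, with 1 OSM mouse in litter 3. Here edgeR's quasi-likelihood test called none of the 38 genes and 0% of all genes, and 2 of the 38 had an unadjusted p under 0.05, against 6.42% of all genes. Unc5a differed between OSM and PBS by 0.10, -0.11 and 3.87 in litters 1, 2 and 3 (unadjusted p = 0.00923), and the last value rested on mouse 9, with 3251 reads of Unc5a against 76 and 170 in PBS mice 10 and 11. Summed retinal neuron markers in mouse 9 were 73.4 CPM, within the range of the other mice. The source of the Unc5a reads in mouse 9 was not tested. Robo1 differed by -1.49, 2.08 and -0.08 (unadjusted p = 0.0145). DESeq2 without a filter called both, with adjusted p of 0.02 for Unc5a and 0.0259 for Robo1, and 2.33% of all genes.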

How the data were processed

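Single-read libraries were made from poly(A)-primed, PCR-amplified cDNA of sorted cells. The authors aligned reads to GRCm39 with STAR and counted them per gene with featureCounts, and the deposited values are whole-number counts of reads without normalization. Reads carried no molecular identifiers. Of 55359 gene identifiers, 54749 matched GENCODE vM39, which gave symbols, positions and union exon lengths. The members, gene lists and pairs were chosen with earlier results of these data known, and genes named for litter or interaction were named after their values were seen. Otherwise a gene is described with per-mouse values if it had the highest mean RPKM of its family, an unadjusted p under 0.05 for OSM against PBS, or a call by the main tests or by DESeq2 for OSM.

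Counts of all 11 mice were fitted in edgeR 4.0.16 (R 4.3.3) with filterByExpr (count minimum 10), TMM scaling, robust quasi-likelihood dispersion and terms for litter and treatment; p-values were adjusted by the Benjamini-Hochberg method over 17050 genes, with a threshold of 0.05. The 95% intervals derive from the log2 fold change and its F statistic and are approximate. Litter terms and litter-by-treatment terms were tested in the same way. Within-litter differences are of mean log2(CPM + 0.5). Alternatives were DESeq2 1.42.0, other filters and size factors, no litter term, thinning to the smallest library, and leaving out each mouse or litter. The scripts were tested on simulated data. Each mouse is 1 replicate; mouse numbers are not shared between treatments.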

Additional observations from a re-analysis of the deposited data

Results flagged for a closer look

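Of 44 groups of mice examined (22 genes in OSM and in PBS mice), 2 held a mouse far from the others on the scale of log2(CPM + 0.5), where chance gives about 1 in 20. For Sema7a in OSM mice, mouse 9 stood at 55.6 CPM and the next at 31.2 CPM, a gap of 0.723 of the group's range on that log2 scale. For Sema3e in PBS mice, mouse 3 stood at 0.152 CPM and the next at 0.0313 CPM, a gap of 0.771 of the range on the log2 scale, on 4 reads against 1.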

How the results depend on the processing

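No paired analysis was possible because mouse numbers are not shared between treatments; litter was a term in the main tests. For OSM against PBS, 0 guidance genes were called by edgeR under all alternatives run, leaving out each mouse included (0 to 0), and 1, Plxnb2, by DESeq2 without a filter, on the genes edgeR tested, or without the litter term. For litter, edgeR called 3 once every gene with a read was kept, 4 were called by DESeq2 without a filter and 3 by DESeq2 on the genes edgeR tested; for the interaction these gave 1, 2 and 1. The causes were not tested. Ntn4 turned from 0.15 to -1.22 without litter 2, and ran from -0.39 to 0.84 as each mouse was left out. Robo4 ran from -0.20 to 0.0028 in the same way, above 0 only without mouse 8. Plxnb2 ran from -0.78 to -0.53, nearest 0 without mouse 9. Slit2 ran from -4.15 (without mouse 2) to -1.41 (without mouse 3) around -2.32. The fold changes of Plxnd1, Unc5b, Sema6a, Slit2 and Sema3e kept their sign wherever they were fitted. Levels in RPKM depended on the length used. With the longest transcript in place of all exons, Slit2 averaged 0.261 RPKM (0.0812 before), Sema6a 39.7 (29.9) and Sema6d 20.7 (12.4). Sema6d then stood above Unc5b at 15.8 RPKM (14.8 before). Robo4 at 136.8 RPKM (131.8) and Plxnd1 at 66.6 (60.7) moved less. The count filter kept 6 genes out of the test. After thinning to the smallest library, 37 guidance genes were tested. The SE of Slit2 was then 1.70 (1.79 unthinned) and that of Ntn4 1.43 (1.59).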
